A study of Rattus norvegicus with 58 samples.

Results

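Hoxd8, Hoxd9 and 3 genes known only by their Ensembl identifiers (ENSRNOG00000016141, ENSRNOG00000016149 and ENSRNOG00000016199) were expressed at a higher level in the gastrocnemius than in the triceps brachii of male Wistar rats, a non-engineered outbred strain. These 5 of the 32545 genes in the count table were chosen by that difference in read counts, and Hoxd8 and Hoxd9 also because the study lists them among the genes whose change from 8 to 24 months differs between the muscles. That list was the only source of gene symbols, so the 3 other genes, called gastrocnemius-restricted here because most triceps libraries held at most a few reads of them, are given by identifier, without symbol or role. All 5 were among the 14947 genes that had at least 20 reads in at least 1 library and entered the tests.

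The gastrocnemius, a hindlimb calf muscle, and the triceps brachii, a forelimb muscle, were taken from the same 29 untreated rats. Of these, 10 were adult (8 months), 10 early-sarcopenic (18 months) and 9 sarcopenic (24 months), and 58 RNA-seq libraries were made. The study asked how the hindlimb muscle, which wastes with age, differs from the forelimb muscle. Ages were compared between different animals, never within an animal, whereas the muscles were compared within a rat. Libraries held between 11176076 and 72297573 reads counted on genes, with a median of 21249321. Levels are given as TMM CPM, the share of a library's reads on a gene in CPM units after scaling by edgeR's TMM factor. Among the muscle fibre markers that could be matched, Actn3, Ckmt2 and Mylk2 summed to at least 1842 TMM CPM in every library, whereas no Schwann cell, nerve or skin marker of the lists used could be matched to an identifier. Since whole muscle was sequenced, fewer cells of a type and less RNA per cell cannot be told apart.

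Hox genes encode homeodomain transcription factors that give cells of the embryo their position along the body and limb axes, and they lie in clusters whose gene order follows the order of their expression domains. The HoxD cluster takes part in patterning both limbs, and adult limb tissues keep part of the Hox pattern of their place of origin. In the RefSeq annotation of the rat assembly GRCr8, Hoxd9 and Hoxd8 are direct neighbours on the plus strand of chromosome 3, between Hoxd10 and Hoxd4. Their promoter windows, from 250 bases before to 50 bases after the annotated start, are shown because both genes moved together from rat to rat. Both were copied from RefSeq for GRCr8, a later build than the Rnor_6.0 to which the reads were aligned. The Hoxd8 window is chr3:80014973-80015272 and the Hoxd9 window is chr3:80007756-80008055, and capitals mark TAAT, the core that homeodomain proteins bind, on either strand.
Hoxd8: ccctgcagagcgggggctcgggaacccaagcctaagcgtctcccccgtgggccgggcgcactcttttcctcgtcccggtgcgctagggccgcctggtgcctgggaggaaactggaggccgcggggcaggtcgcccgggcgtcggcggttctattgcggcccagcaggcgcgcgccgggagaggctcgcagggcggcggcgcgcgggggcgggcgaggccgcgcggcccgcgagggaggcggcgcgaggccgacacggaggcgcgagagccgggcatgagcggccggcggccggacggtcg
Hoxd9: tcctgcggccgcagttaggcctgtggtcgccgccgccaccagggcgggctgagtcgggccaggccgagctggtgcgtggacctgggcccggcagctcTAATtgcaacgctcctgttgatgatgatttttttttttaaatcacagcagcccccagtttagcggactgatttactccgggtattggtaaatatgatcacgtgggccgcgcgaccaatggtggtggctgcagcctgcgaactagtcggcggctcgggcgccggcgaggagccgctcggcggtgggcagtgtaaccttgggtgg
The Hoxd8 window was 79% G and C and held 49 CG dinucleotides, and the Hoxd9 window was 62.7% G and C with 27 of them, against medians of 51.7% and 7 over 33469 rat promoter windows of that length. TAAT was found once in the Hoxd9 window and not in that of Hoxd8, and 60.6% of all windows hold it. The GC box GGGCGG was found 2 times in the Hoxd8 window and 1 time in the Hoxd9 window (33.1% of all windows hold it), CCAAT was found 2 times in the Hoxd9 window only (37.5%), and the TATA box TATAAA in neither (14.2%). Motifs were searched as spelled on both strands, and these matches are letters in a window and not binding sites. Sequences of the genes without a symbol could not be matched.

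In 29 of 29 rats, each of the 5 genes had a higher level in the gastrocnemius than in the triceps brachii of the same animal, and for none of them did any gastrocnemius library overlap with any triceps library. This contrast chose the genes, so it is given without a test. A gene was called when its fold change exceeded 2 and its adjusted p was below 0.05. Over all genes tested, 0.950% were called higher in the gastrocnemius at 8 months, 2.50% at 18 months and 4.38% at 24 months. These shares follow another rule than the lack of overlap, whose share over all genes was not counted.

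**Figure D1:**
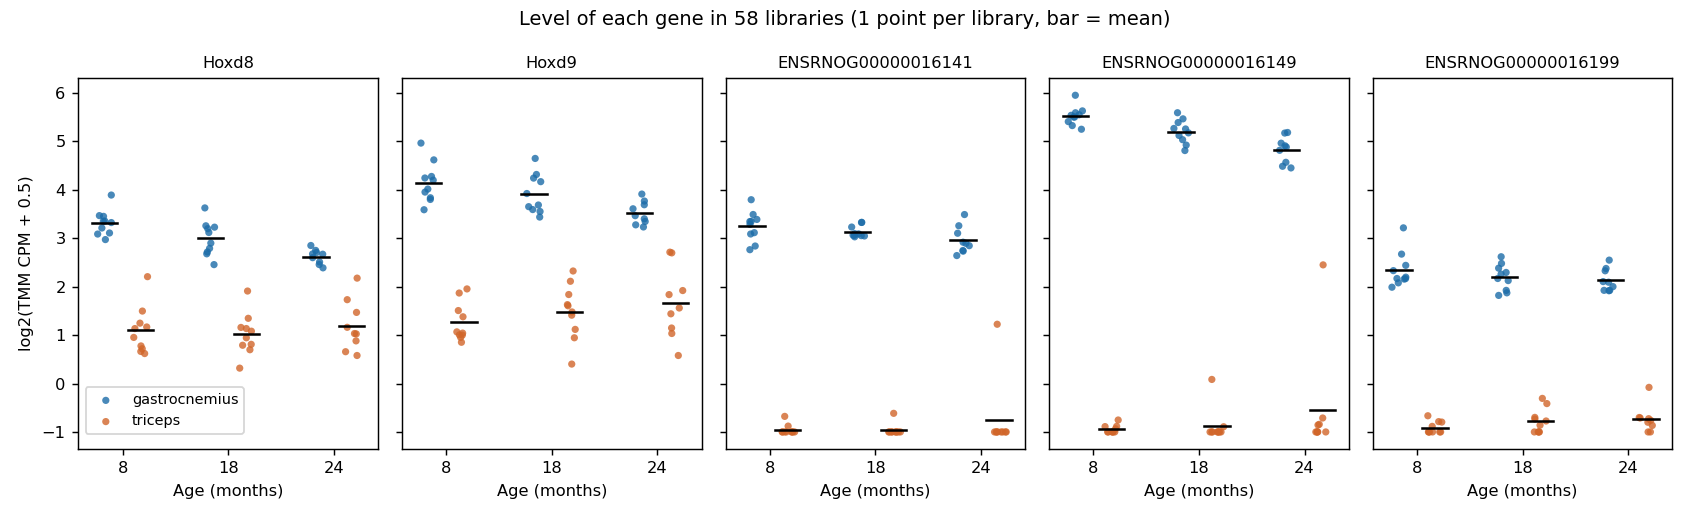
Level of each gene in all 58 libraries as log2(TMM CPM + 0.5), by age in months; each point is 1 library, blue gastrocnemius and orange triceps brachii, and black bars are means. Gastrocnemius points lie above all triceps points for every gene, and the triceps points of ENSRNOG00000016141 and ENSRNOG00000016149 lie near the bottom of the scale, with rat 50 at 24 months the highest (1.83 and 4.96 TMM CPM).

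Levels of different genes are not compared, because they depend on gene length. In gastrocnemius the lowest, median and highest levels of Hoxd9 were 11.5, 16.7 and 30.7 TMM CPM at 8 months, 10.3, 13.5 and 24.5 at 18 months, and 8.89, 10.5 and 14.5 at 24 months. In triceps brachii they were 1.30, 1.58 and 3.37 at 8 months, 0.821, 2.41 and 4.50 at 18 months, and 0.993, 2.45 and 6.05 at 24 months. The ranges of neighbouring ages overlapped in both muscles, and the mean went down with age in gastrocnemius (17.9 ± 5.71, 15.2 ± 4.61 and 11.1 ± 1.93; SD, n = 10, 10 and 9) and up in triceps brachii (1.98 ± 0.744, 2.49 ± 1.10 and 3.03 ± 1.84). Triceps Hoxd9 was therefore 10.3% of the gastrocnemius level of the same rat at 8 months (median of 10 rats, range 7.08% to 18.2%), 13.9% at 18 months (6.64% to 37.3%) and 22.0% at 24 months (8.50% to 65.2%).

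Hoxd8 also went down with age in gastrocnemius, whereas its triceps medians were nearly level. Its lowest, median and highest levels in gastrocnemius were 7.34, 9.60 and 14.3 TMM CPM at 8 months, 4.98, 7.56 and 11.8 at 18 months, and 4.73, 5.86 and 6.70 at 24 months. Every sarcopenic gastrocnemius library was thus below every adult one in TMM CPM, but not in CPM by library totals (highest at 24 months 9.09, lowest at 8 months 6.73). In triceps brachii the levels were 1.03, 1.56 and 4.11 at 8 months, 0.746, 1.52 and 3.25 at 18 months, and 0.993, 1.54 and 4.02 at 24 months, with overlap of all 3 ages. Triceps Hoxd8 was 16.1% of the gastrocnemius level of the same rat at 8 months (range 11.0% to 42.3%), 19.1% at 18 months (12.4% to 36.7%) and 27.8% at 24 months (16.9% to 59.9%). The means ordered the groups as adult, early-sarcopenic and sarcopenic gastrocnemius (9.64 ± 1.96, 7.69 ± 2.03 and 5.68 ± 0.628) and then triceps brachii at 24, 8 and 18 months (1.92 ± 0.971, 1.76 ± 0.921 and 1.61 ± 0.684). In the fit of all libraries no neighbours within a muscle in this order passed where a test was made, nor did those of Hoxd9, whereas with gastrocnemius libraries alone 18 and 24 months differed for both genes, as given with the tests.

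The fitted differences between the muscles shrank with age for both Hox genes, which is again a description because the study's list was made from it. Hoxd8 was lower in triceps brachii by a log2 fold change of -2.54 (SE 0.19) at 8 months, -2.29 (SE 0.19) at 18 months and -1.63 (SE 0.19) at 24 months. For Hoxd9 the values were -3.19 (SE 0.24), -2.65 (SE 0.23) and -1.99 (SE 0.24). From 8 to 24 months Hoxd8 changed by -0.76 (SE 0.20) in gastrocnemius and by 0.19 (SE 0.22) in triceps brachii, and Hoxd9 by -0.69 (SE 0.22) and 0.64 (SE 0.25). Without rat 50, whose triceps library held the highest 24-month level of both genes, the triceps changes were -0.06 and 0.42.

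The 3 restricted genes were measured in every gastrocnemius library, with 48 reads or more. In triceps brachii a read was found in 4 of 29 libraries for ENSRNOG00000016141, in 10 for ENSRNOG00000016149 and in 17 for ENSRNOG00000016199. ENSRNOG00000016149 had 465 to 2148 reads per gastrocnemius library. Its lowest, median and highest levels there were 37.5, 45.3 and 61.3 TMM CPM at 8 months, 27.5, 36.6 and 47.6 at 18 months, and 21.3, 28.9 and 35.8 at 24 months. As with Hoxd8, the adult and the sarcopenic libraries did not overlap in TMM CPM, and libraries of 18 months lay across both. In CPM by library totals they did overlap (highest at 24 months 38.4, lowest at 8 months 36.1). Such a separation downwards in TMM CPM between 8 and 24 months was seen in 3.35% of all genes tested.

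ENSRNOG00000016141 had 6.28, 9.44 and 13.4 TMM CPM (lowest, median and highest) in gastrocnemius at 8 months, 7.65, 7.93 and 9.53 at 18 months, and 5.74, 6.93 and 10.7 at 24 months. ENSRNOG00000016199 had 3.47, 4.04 and 8.77 at 8 months, 3.03, 4.14 and 5.63 at 18 months, and 3.27, 3.76 and 5.34 at 24 months. For both genes the 3 ages overlapped widely. Rat 4 had the highest adult gastrocnemius level of all 5 genes.

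The 10 adult triceps libraries together held 4, 5 and 6 reads of ENSRNOG00000016141, ENSRNOG00000016149 and ENSRNOG00000016199, against 1816, 9050 and 919 in the adult gastrocnemius. In CPM of the pooled libraries, before TMM scaling, the gastrocnemius level was 473 times that of triceps brachii for ENSRNOG00000016141 (95% Clopper-Pearson interval 184 to 1737), 1885 times for ENSRNOG00000016149 (808 to 5807) and 160 times for ENSRNOG00000016199 (73.0 to 436). At 18 months the ratios were 572, 628 and 41.3. For Hoxd8 and Hoxd9 the adult ratios were 6.03 (5.36 to 6.81) and 9.36 (8.43 to 10.4). These intervals cover counting error only. At a single library's depth, absence cannot be shown: 3 reads, the limit that a count of 0 allows, are 0.0585 to 0.268 CPM in an adult triceps library.

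Among the 9 sarcopenic triceps libraries, that of rat 50 held 74 of the 74 reads of ENSRNOG00000016141 and 200 of the 204 reads of ENSRNOG00000016149. It also held 18 of the 28 reads of ENSRNOG00000016199. Its levels were 1.83, 4.96 (95% exact Poisson interval 4.29 to 5.69) and 0.446 TMM CPM (0.264 to 0.705), whereas the 8 others had no read of the first gene, at most 0.110 of the second and at most 0.115 of the third. In the other 8 libraries, 0 of 164681527 reads were on ENSRNOG00000016141, which allows up to 0.0182 CPM and makes its gastrocnemius level at least 475-fold higher at 24 months without rat 50. Including rat 50 the ratio of pooled reads was 24.0. For ENSRNOG00000016149 the ratio was 33.1 with rat 50 and 1365 without it, and for ENSRNOG00000016199 it was 33.5 and 75.2.

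The library of rat 50 was also the highest of the sarcopenic triceps libraries in Hoxd8 (162 reads, 4.02 TMM CPM, the others 0.993 to 2.82) and Hoxd9 (244 reads, 6.05 TMM CPM, the others 0.993 to 5.98). As a percentage of the gastrocnemius of the same rat, its triceps brachii had 59.9% for Hoxd8, 48.8% for Hoxd9, 29.9% for ENSRNOG00000016141, 23.2% for ENSRNOG00000016149 and 13.6% for ENSRNOG00000016199. After the mean of the 8 other sarcopenic triceps libraries was subtracted, the percentages were 35.1%, 27.4%, 29.9%, 23.1% and 11.5% in the same order.

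**Figure D2:**
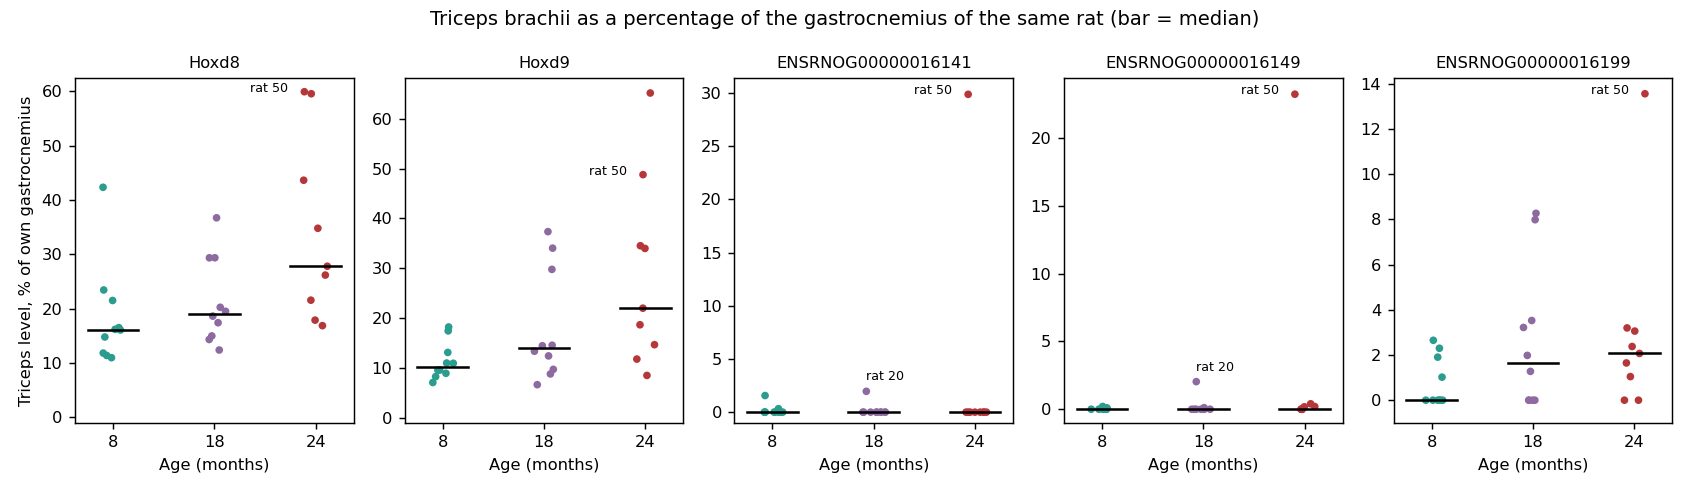
Triceps level as a percentage of the gastrocnemius level (TMM CPM) of the same rat, by age in months; each point is 1 rat and bars are medians, and the vertical scale differs between panels. Rat 50 stands at 29.9%, 23.2% and 13.6% in the 3 restricted genes, and the Hoxd8 and Hoxd9 medians go from 16.1% and 10.3% at 8 months to 27.8% and 22.0% at 24 months.

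Other genes of the same library are given beside these values. Actn3, the alpha-actinin of fast fibres, was at 12949 TMM CPM, the highest of the 9 sarcopenic triceps libraries and 378% of the gastrocnemius of rat 50, and Chrna1, the acetylcholine receptor subunit that denervated muscle induces, was at 19.4 TMM CPM, 9.60% of it and within the range of the other sarcopenic triceps libraries (1.72 to 33.1). The other fibre genes, Ckmt2 and Mylk2, were at 751 and 1663 TMM CPM, within the ranges of the others (555 to 1327 and 806 to 2547), and the 3 fibre genes summed to 15364, below the highest sum of 15933. The 7 connective tissue genes summed to 2267 TMM CPM, the highest of the 9 (lowest 1167, median 1641), and the 2 haemoglobin genes to 48.1, the lowest. Musk, the kinase that organises the neuromuscular junction, was at 8.60 TMM CPM, above the 2.16 to 3.62 of the others. Myh8 was at 11.2, above their 3.50 to 10.8. All other matched denervation and regeneration genes lay within the ranges of the others. The 12 genes of that list summed to 461 TMM CPM, within the range of the sarcopenic triceps libraries (245 to 538). Of the 18 genes that were at least 4-fold higher in adult gastrocnemius without overlap between the muscles, 5 are the genes described here. Of the 13 others, rat 50 was the highest sarcopenic triceps library for 1, whereas another rat was the highest for up to 6. That 1 gene, ENSRNOG00000055918, named here after its values were seen, had no read in adult triceps brachii, 0.248 TMM CPM in the triceps brachii of rat 50 and none in the 8 others. The part of the connective tissue, Musk and Myh8 levels in the rat 50 values was not tested.

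At 18 months, the triceps library of rat 20 held 3 reads of ENSRNOG00000016141 and 11 of ENSRNOG00000016149, where the 9 other libraries held 0 and 1 read in all. These were 1.96% and 2.03% of the gastrocnemius level of rat 20. ENSRNOG00000016199 followed another arrangement: it had 1 read there, and 6 and 8 reads in rats 16 and 17 (0.250 and 0.308 TMM CPM), which had none of the other restricted genes.

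Changes with age were tested with edgeR's quasi-likelihood test on all libraries, for comparisons other than those that had served to choose the genes. Hoxd8 and Hoxd9 were chosen by a contrast of adult and sarcopenic libraries, and each of their tests uses part of those libraries again. That choice leans their changes towards a fall in gastrocnemius and a rise in triceps brachii, so their tests are not independent of it. From 8 to 18 months in gastrocnemius, no one of the 5 genes passed, against 4.64% of all genes that passed an adjusted p of 0.05. The log2 fold changes were all below 0, from -0.33 (SE 0.19, adjusted p = 0.364) for Hoxd8 to -0.15 (SE 0.32, adjusted p = 0.864) for ENSRNOG00000016141. A two-sided permutation test on each gene alone, unadjusted, gave p = 0.0297 for Hoxd8, 0.225 for Hoxd9, 0.288 for ENSRNOG00000016141, 0.00372 for ENSRNOG00000016149 and 0.333 for ENSRNOG00000016199.

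From 18 to 24 months in gastrocnemius, where 20.8% of all genes passed, again none of the 5 did. Hoxd8 changed on the log2 scale by -0.44 (SE 0.20, adjusted p = 0.107), Hoxd9 by -0.45 (SE 0.22, adjusted p = 0.140) and ENSRNOG00000016149 by -0.38 (SE 0.34, adjusted p = 0.445). When only gastrocnemius libraries entered the edgeR fit, these 3 passed, with adjusted p = 0.0178, 0.0491 and 0.0125. Their log2 fold changes were -0.45, -0.46 and -0.39. For Hoxd8 and Hoxd9 these passes are not independent of the choice of the genes, which used the same 24-month libraries. In the fit of all libraries ENSRNOG00000016141 and ENSRNOG00000016199 had -0.16 and -0.07 with edgeR adjusted p = 0.759 and 0.863. The unadjusted permutation test gave p = 0.00736 for Hoxd8 and 0.0174 for Hoxd9, again not independent of their choice. It gave p = 0.0878 for ENSRNOG00000016141, 0.00608 for ENSRNOG00000016149 and 0.605 for ENSRNOG00000016199.

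From 8 to 24 months in gastrocnemius, 44.2% of all genes passed and 9.03% were called. The log2 fold change of ENSRNOG00000016149 was -0.70 (SE 0.34, adjusted p = 0.0891), that of ENSRNOG00000016141 -0.31 (SE 0.33, adjusted p = 0.461) and that of ENSRNOG00000016199 -0.26 (SE 0.25, adjusted p = 0.411), so that none of the 3 passed in the fit of all libraries. That fit estimates 1 spread per gene over both muscles, and for ENSRNOG00000016149 the spread included the triceps library of rat 50. Without rat 50 the change of ENSRNOG00000016149 was -0.67 (SE 0.16, adjusted p = 0.000858), and with gastrocnemius libraries alone it was -0.70 (SE 0.11, adjusted p = 1.02e-05). ENSRNOG00000016141 then had an adjusted p = 0.0322 at -0.32 (SE 0.12), and ENSRNOG00000016199 an adjusted p = 0.152 at -0.27 (SE 0.15). Limma-voom, fitted with a correlation between the muscles of each rat, gave adjusted p = 3.15e-06 for ENSRNOG00000016149, 0.0365 for ENSRNOG00000016141 and 0.240 for ENSRNOG00000016199. The unadjusted permutation test on each gene alone gave p = 2.17e-05, 0.0477 and 0.159 in the same order.

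Scaling bears on these falls. With TMM factors the log2 fold changes of all genes in gastrocnemius had a median of 0.02, and with library totals alone one of 0.36. On library totals the changes of Hoxd8, Hoxd9 and ENSRNOG00000016149 were smaller, at -0.42 (SE 0.21), -0.35 (SE 0.23) and -0.38 (SE 0.35). ENSRNOG00000016149 did not pass there (edgeR adjusted p = 0.348). ENSRNOG00000016141 and ENSRNOG00000016199 were at 0.03 and 0.08.

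**Figure D3:**
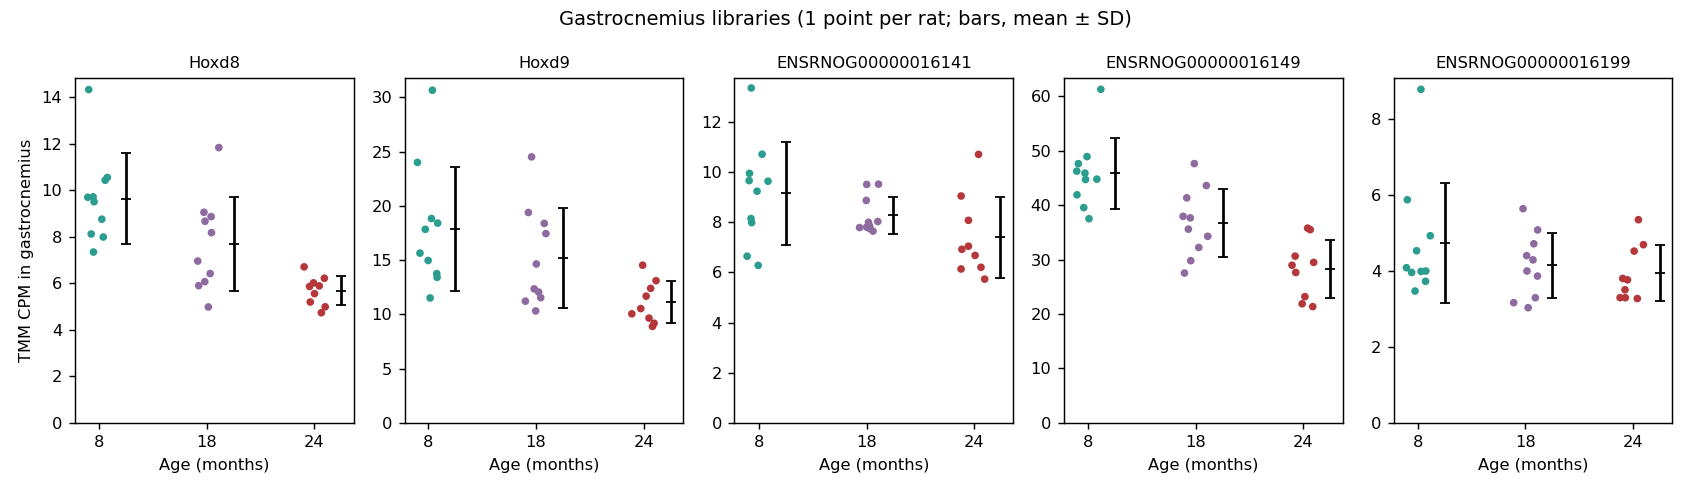
TMM CPM in gastrocnemius by age in months for each gene; points are rats, and bars are the mean ± SD of 10, 10 and 9 rats. At 24 months all points of Hoxd8 and ENSRNOG00000016149 lie below those at 8 months, and the ages overlap for the 3 other genes.

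**Figure D4:**
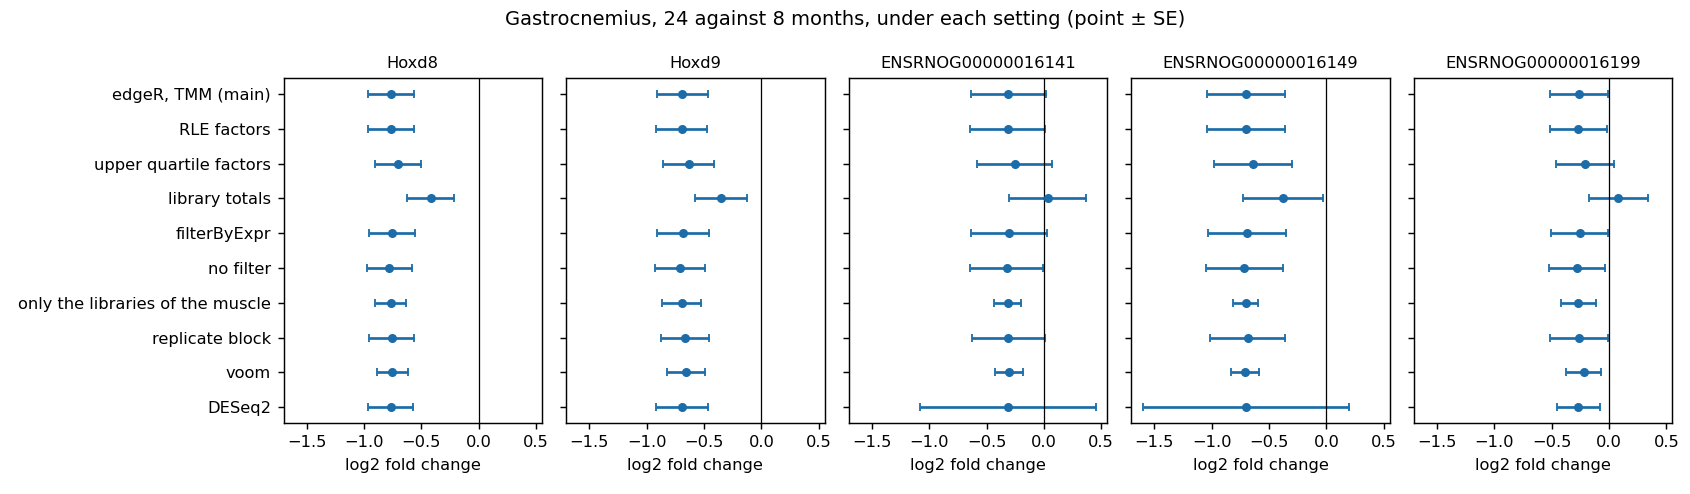
Log2 fold change in gastrocnemius from 8 to 24 months for each gene (point ± SE) under the main test and 9 other settings, 1 per line. The points stay below 0 except for ENSRNOG00000016141 and ENSRNOG00000016199 with library totals, and the bars of ENSRNOG00000016141 and ENSRNOG00000016149 are shorter when only gastrocnemius libraries enter (SE 0.12 and 0.11) than in the main test (SE 0.33 and 0.34).

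In triceps brachii the Hox genes were tested for comparisons other than that of the study's list. Each of these shares the libraries of 8 or of 24 months with the list, so none is independent of it. From 8 to 18 months the log2 fold change was -0.08 (SE 0.22, adjusted p = 0.999) for Hoxd8 and 0.32 (SE 0.25, adjusted p = 0.975) for Hoxd9, and from 18 to 24 months it was 0.27 (SE 0.22, adjusted p = 0.586) and 0.32 (SE 0.25, adjusted p = 0.555). Of all genes, 0.0468% and 0.194% passed in these comparisons. The difference between the muscles in the change from 8 to 18 months, for which 0.314% of genes passed, was 0.26 (SE 0.26, adjusted p = 0.803) for Hoxd8 and 0.53 (SE 0.33, adjusted p = 0.626) for Hoxd9.

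For the restricted genes in triceps brachii from 8 to 24 months, ENSRNOG00000016141 and ENSRNOG00000016149 were called, with adjusted p = 0.0199 and 0.00521, while 2.72% of all genes passed and 0.870% were called. The calls rest on rat 50, the only triceps library with at least 20 reads of either gene. Without it the adjusted p was 0.194 and 0.987 from edgeR, in a fit that both genes entered through their gastrocnemius reads alone. With triceps libraries only, rat 50 included, it was 0.102 and 0.0528. ENSRNOG00000016199 had at most 18 reads in a triceps library, below the filter, so its age change there is not read from a test. A permutation test on each gene alone, unadjusted, gave p = 0.947 for ENSRNOG00000016141 and 0.315 for ENSRNOG00000016149. Between the muscles, the change from 8 to 24 months did not pass for these genes (edgeR adjusted p = 0.166, 0.0601 and 0.122) with the rat as a block, where 14.4% of all genes passed. These tests decide nothing, because the triceps side held few or no reads outside rat 50. ENSRNOG00000016199 entered through its gastrocnemius reads alone.

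The genes were not chosen by how they move together from rat to rat, although the study's tests behind its list use the spread within groups. This joint variation was examined within gastrocnemius after the mean of each age had been removed from log2(TMM CPM + 0.5). Hoxd8 and Hoxd9 rose and fell together over the 29 rats (Pearson r = 0.79, permutation within ages p = 1e-05, the smallest that 100000 resamples can give, adjusted p = 0.00012 over 12 relations; Spearman rho = 0.758, adjusted p = 0.00096). The relation had r = 0.849 at 8 months, 0.795 at 18 months and 0.660 at 24 months. Leaving out the 2 rats farthest from the median Hoxd8 level gave r = 0.773, and library totals gave 0.771. Both genes share the scaling factor of the library, and reads of overlapping transcripts of the cluster cannot be separated because the library kit does not mark the strand.

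**Figure D5:**
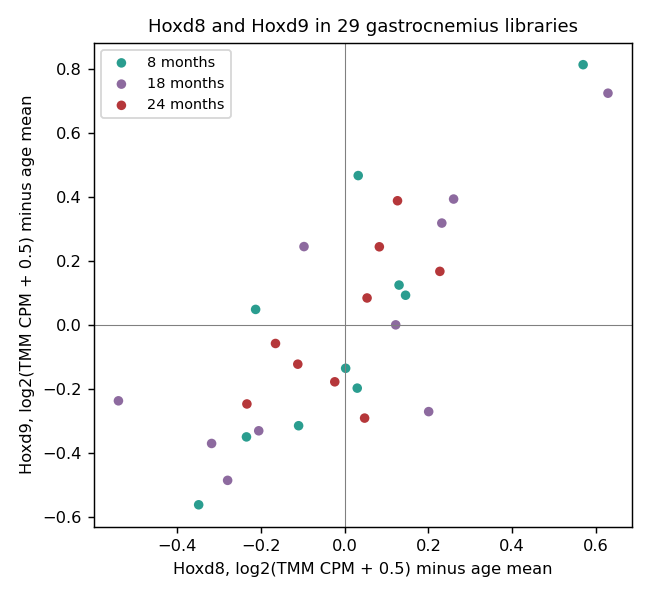
Deviation of Hoxd8 (horizontal) and Hoxd9 (vertical) from the mean of the age group in 29 gastrocnemius libraries, both as log2(TMM CPM + 0.5); points are rats, coloured by age in months. The points run from lower left to upper right at each age (r = 0.849, 0.795 and 0.660 at 8, 18 and 24 months).

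Of the 9 other pairs of the 5 genes in gastrocnemius, 4 passed by Pearson's r, from 0.44 to 0.50, and none by Spearman's rho. These were Hoxd9 with ENSRNOG00000016149 (r = 0.467, adjusted p = 0.0383) and the 3 pairs of restricted genes. Counted from ENSRNOG00000016141, the other restricted genes stood at places 124 and 181 of 14946. In all other counts over these pairs the partner stood at place 1048 to 2287, so that many genes had a higher r. Between ENSRNOG00000016141 and ENSRNOG00000016199 the r = 0.47 fell to 0.127 without the 2 farthest rats, so its size depended on them. By age it was 0.651 at 8 months, -0.465 at 18 months and 0.721 at 24 months. With library totals Hoxd8 with Hoxd9 was the only one of the 12 relations that passed. Across muscles of the same rat, neither Hoxd8 (r = 0.268, adjusted p = 0.213) nor Hoxd9 (r = 0.0273, adjusted p = 0.884) passed.

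By the highest Pearson r over the gastrocnemius libraries with age means removed, the genes most like Hoxd8 were ENSRNOG00000001581 (r = 0.808) and Hoxd9 (r = 0.790). Those most like Hoxd9 were ENSRNOG00000007668 (r = 0.821) and ENSRNOG00000019103 (r = 0.813), and Hoxd8 stood at place 9 of 14946. ENSRNOG00000001581 had a mean of 2.55 TMM CPM in gastrocnemius and 0.275 in triceps brachii. The 2 genes most like Hoxd9 had higher means in triceps brachii (35.7 and 19.6 TMM CPM) than in gastrocnemius (27.7 and 16.4). For ENSRNOG00000016149 the most alike genes were ENSRNOG00000017071 (r = 0.879) and ENSRNOG00000011794 (r = 0.875), for ENSRNOG00000016199 ENSRNOG00000020674 (r = 0.851) and ENSRNOG00000014272 (r = 0.850), and for ENSRNOG00000016141 ENSRNOG00000056011 (r = 0.710) and ENSRNOG00000000440 (r = 0.693). None of these was restricted to gastrocnemius. Their means in gastrocnemius and triceps brachii were, in the same order, 44.8 and 55.4 TMM CPM, 178 and 227, 98.3 and 99.4, 246 and 245, 4.71 and 5.11, and 26.0 and 24.8.

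Over all 58 libraries, where the difference between the muscles dominates, the restricted genes were most like each other (r = 0.996 between ENSRNOG00000016141 and ENSRNOG00000016149, 0.986 between each of them and ENSRNOG00000016199). Hoxd9 was most like ENSRNOG00000001578 (r = 0.960) and Hoxd8 (r = 0.957), and Hoxd8 most like Hoxd9 and ENSRNOG00000016149 (r = 0.937). ENSRNOG00000001578 had 24.5 TMM CPM in adult gastrocnemius and 2.25 in adult triceps brachii, and in rat 50 its triceps level was 60.6% of that in gastrocnemius.

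Of 39 Hox genes listed, identifiers were at hand for Hoxd8 and Hoxd9 only. Of 35 other limb patterning genes, 5 could be matched, and all 5 stand in the study's list, so their change from 8 to 24 months is no independent evidence. The list compares 8 and 24 months, but the 18-month libraries entered the same fit of the study. Tests at 18 months are therefore not independent of it either. At that age, 2 of these 5 passed for a difference between the muscles, both higher in triceps brachii, against 18.0% of all genes in either direction. Irx3, a homeobox gene of limb and heart patterning, was higher there, with a log2 difference of 1.32 (SE 0.26, adjusted p = 0.000547) and Eya1, a transcription cofactor in muscle formation, with one of 0.37 (SE 0.13, adjusted p = 0.0421). Prrx1 (limb mesenchyme), Scx (tendon) and Eya2 had -0.18, 0.32 and 0.04 with adjusted p = 0.112, 0.118 and 0.874. From 8 to 24 months in gastrocnemius, Irx3 had a log2 fold change of 1.49, Prrx1 0.28, Scx 0.40, Eya2 0.04 and Eya1 -1.05, beside -0.76 for Hoxd8 and -0.69 for Hoxd9.

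Cell type and denervation markers moved in gastrocnemius over the same ages, and their part in the falls of Hoxd8, Hoxd9 and ENSRNOG00000016149 was not tested. All markers that could be matched came from the study's list, so these counts describe and do not support. Of all 14947 genes, 3372 were higher and 3229 lower from 8 to 24 months in gastrocnemius by edgeR's adjusted p under 0.05. Of 12 denervation and regeneration genes, 12 were higher and none lower from 8 to 24 months by edgeR's adjusted p (median log2 fold change 2.27 against 0.02 for all genes), with summed levels of 172 to 275 TMM CPM in adult and 552 to 1825 in sarcopenic gastrocnemius. Of 7 connective tissue genes 6 were higher (sums of 1219 to 1999 and 1800 to 4023), and of the 3 fibre genes 3 were lower (7959 to 17628 and 1842 to 6763). Of the others, 3 of 3 immune genes and Myf5 of satellite cells were higher, and the 2 haemoglobin genes and Plin4 of fat were lower. In triceps brachii 5 of the 12 denervation genes were higher, and no connective tissue, fibre, immune, satellite cell, haemoglobin or fat gene passed. Over all 14947 genes, 311 were higher and 95 lower there, so short lists without a pass say little.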

How the data were processed

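Whole-muscle polyA RNA of 58 libraries (29 rats, both muscles) was measured by RNA-seq. Per the labels and the study's methods, the authors prepared the libraries with TruSeq RNA v2 kits, which do not mark the strand, converted base calls with CASAVA 1.8, aligned paired reads to Rnor_6.0 with STAR 2.3.0e and counted reads per gene with HTSeq in union mode. The Ensembl release and the strand option are not given in the sources used here, so genes that overlap others are uncertain. The deposited values are raw read counts of 32545 Ensembl genes. Identifiers of Hoxd8, Hoxd9 and the listed genes were read from the study's supplementary gene list.

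The main test was the quasi-likelihood test of edgeR 4.0.16 under R 4.3.3 (TMM, genes with 20 reads or more in any 1 library), with 1 mean per muscle and age for age changes and the rat as a block for differences between the muscles; p-values were adjusted over all 14947 genes by Benjamini and Hochberg. A gene passed at an adjusted p under 0.05 and was called regulated in age comparisons at a fold change over 2 as well. Alternatives used DESeq2 1.42.0, limma 3.58.1, other scalings, filters and samples; fits that left out a rat with the rat as a block kept the trended dispersion of the full data. On simulated counts of 14947 genes, edgeR recovered 96 of 100 genes changed 2-fold in gastrocnemius from 8 to 24 months, and 86 of 100 for the difference between the muscles. The changed genes were drawn from genes with many reads, and no rat effect was simulated. These shares therefore do not give the power for smaller changes or for genes with few triceps reads. Permutation tests, Poisson and Clopper-Pearson intervals at 95% came from scipy 1.17.1, with 100000 resamples, two-sided; the pseudocount was 0.5.

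The rat pairs the muscles because both were taken from 1 animal, and after removal of group means the 2 libraries of an animal correlated over genes at a median of 0.235 and was over 0.1 in 24 of 29 rats. No pair of libraries of a group agreed within sampling noise (chi-square per degree of freedom at least 11.6). The 5 genes and all lists were chosen with earlier results of these data known. Named genes are the 5, for each the 2 most alike by Pearson r over gastrocnemius and over all libraries, and list members with a symbol.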

Additional observations from a re-analysis of the deposited data

Results flagged for a closer look

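In 12 of 30 member and group combinations, 1 library was past Dixon's 95% limit for a single sample far from the others. The ratio is the gap to the nearest library over the range of the group. The limit is made for normally spread values, where chance gives about 1 in 20. That rate does not apply to triceps groups of the restricted genes, in which most libraries held few or no reads. The genes also vary together in part, so the count of 12 is not set against chance. The triceps library of rat 50 stood apart at 24 months in ENSRNOG00000016141 (ratio 1.00, since no other library had a read), ENSRNOG00000016149 (0.978) and ENSRNOG00000016199 (0.742). That of rat 20 stood apart at 18 months in ENSRNOG00000016141 (ratio 1.00) and ENSRNOG00000016149 (0.931). Among adult triceps libraries, rat 2 stood apart in ENSRNOG00000016141 (0.649, 3 reads) and rat 9 in ENSRNOG00000016149 (0.554, 2 reads), in groups otherwise at 0 or 1 read. The adult gastrocnemius library of rat 4 stood apart in Hoxd8 (0.541), ENSRNOG00000016149 (0.520) and ENSRNOG00000016199 (0.547). In triceps Hoxd8, rat 1 stood apart at 8 months (0.583, 4.11 against 2.32 TMM CPM in the next library) and rat 14 at 18 months (0.484, 3.25 against 2.04).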

How the results depend on the processing

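In gastrocnemius, none of the genes tested was called with a fold change over 2 under any setting run. Without that limit, a combination chosen after seeing the data, the count from 8 to 24 months was 0 of 3 in the main test, 2 with gastrocnemius libraries only, 2 with voom and 0 to 1 when each rat was left out (1 without rat 50). From 18 to 24 months it was 0 of 5, 3 with gastrocnemius libraries only and 2 with voom. Many genes passed in these settings. From 8 to 24 months 6694 of 14807 genes passed with gastrocnemius libraries only and 6801 of 14947 with voom. From 18 to 24 months 3140 and 3659 genes passed, in the same order. For Hoxd8 and Hoxd9 the passes from 18 to 24 months are not independent of the choice of the genes. With library totals, ENSRNOG00000016141 and ENSRNOG00000016199 turned from lower to higher, at 0.031 and 0.081 from 8 to 24 months and 0.094 and 0.17 from 18 to 24 months. In triceps brachii from 8 to 24 months, 2 of 3 were called (ENSRNOG00000016199 entered only through its gastrocnemius reads), 0 with voom and 0 to 2 when each rat was left out; with triceps libraries only, ENSRNOG00000016199 had too few reads to be tested, so no count is given. Of all 14947 genes, 130 were called in this triceps comparison in the main test and 47 with voom. Leaving out each rat gave log2 fold changes of -2.19 (without rat 50) to 4.74 for ENSRNOG00000016141, -0.035 (without rat 50) to 5.15 for ENSRNOG00000016149 and -0.056 (without rat 50) to 0.38 for Hoxd8. Hoxd8 in triceps brachii from 8 to 18 months turned to 0.011 with voom and ranged from -0.26 (without rat 14) to 0.12 (without rat 1). For the difference between the muscles, 0 of 3 restricted genes passed, 3 without the replicate block by rat, and 0 to 1 when each rat was left out (ENSRNOG00000016149 without rat 20, 42, 45, 46 or 47, edgeR adjusted p = 0.0381 to 0.0462); the value of ENSRNOG00000016141 ranged from -1.83 (without rat 50) to 3.88. For that difference from 8 to 24 months, 2159 of all 14947 genes passed in the main test and 1406 without the block by rat. Rats of different ages share only a number: same-numbered libraries of a muscle correlated at a median of 0.0726, over 0.1 in 23 of 56 pairs, and the replicate block by that number left the change of ENSRNOG00000016149 at -0.69 (edgeR adjusted p = 0.0792) and changed no count. Of the 12 correlations 5 passed, 1 with library totals; ENSRNOG00000016141 with ENSRNOG00000016199 turned to -0.465 at 18 months alone. The cause of these shifts was not tested, other than that fewer samples enter some fits. Outside rat 50, triceps libraries held 0 to 11 reads of each restricted gene. This limits what any age change there, or any difference between the muscles in the age change, can show.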
